A study of Mus musculus with 9 samples.

Results

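The step from long-term haematopoietic stem cells (LT-HSCs) to multipotent progenitors (MPPs) was described from the open chromatin of wild-type mouse bone marrow. ATAC-seq marks open chromatin with Tn5, a transposase that inserts sequencing adapters where DNA is accessible. The comparison took 4 of the 9 libraries of the series, chosen by genotype alone: LT-HSC WT 2 and LT-HSC WT 3 against MPP WT 1 and MPP WT 2. All 4 came from C57BL/6 mice labelled WT. Cells had been depleted of lineage-positive cells and sorted from pooled animals. The labels give neither the age of the animals nor the gates of the sort, and do not say that libraries of a group came from separate pools, so p-values here measure only how these libraries vary, possibly for technical reasons. The other 5 libraries lack the retinoid X receptors alpha and beta and were not used. Overlapping peaks of the 4 lists were merged into 98538 regions, and all 4 libraries held a peak at 20661 of them.

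LT-HSCs are the rare, mostly quiescent cells that sustain blood formation for life and can rebuild it after transplantation. MPPs descend from them, divide more often, have lost long-term self-renewal and begin to open genes of the myeloid and lymphoid lineages. Transcription factors such as Hlf, Mecom and Meis1 are known for keeping the stem cell state, and PU.1 (Spi1), C/EBP-alpha (Cebpa) and Ikaros (Ikzf1) for directing progenitors into myeloid and lymphoid fates. Most open sites near gene starts are shared among blood cells, whereas distal sites, many of them enhancers, tell cell types apart.

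A small number of gene starts carried a region that was strong in 1 cell type and absent from the lists of the other. A region was called strong for a cell type when both of its libraries had it in their best 22878 peaks, as many as LT-HSC WT 3 holds in all, and neither library of the other type held any peak there. The windows below are the 250 bases upstream of the RefSeq start (GRCm38.p6), shown because a strong region overlaps each. They are 6 examples, chosen after their values were seen, from 16 start windows overlapped by a strong LT-HSC region and 60 overlapped by a strong MPP region. Capitals mark matches, on either strand, to GATAA (GATA factors), GGAAGT (ETS factors such as PU.1), TGTGGT (RUNX factors), TGANTCA (AP-1) and CCAAT (the CCAAT box, bound by NF-Y). A match is a stretch of letters, not a shown binding site.

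The LT-HSC windows belong to Cavin2, a caveolar coat protein also found in platelets, at chr1:51288876-51289125 on the plus strand, and to Pdk4, a kinase that keeps pyruvate out of mitochondria, at chr6:5496279-5496528 on the minus strand.
Cavin2: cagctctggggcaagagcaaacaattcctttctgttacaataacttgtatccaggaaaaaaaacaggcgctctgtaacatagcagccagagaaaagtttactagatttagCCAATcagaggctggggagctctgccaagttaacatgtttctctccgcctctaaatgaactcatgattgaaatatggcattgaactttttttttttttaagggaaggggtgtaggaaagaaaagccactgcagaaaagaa
Pdk4: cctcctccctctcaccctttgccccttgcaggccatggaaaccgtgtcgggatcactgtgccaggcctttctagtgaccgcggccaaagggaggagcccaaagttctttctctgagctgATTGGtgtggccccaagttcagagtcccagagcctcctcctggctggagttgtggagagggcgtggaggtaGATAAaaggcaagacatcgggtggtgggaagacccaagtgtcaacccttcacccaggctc
The Cavin2 region ranked 9774 and 8815 in LT-HSC WT 2 and 3, with fold enrichments over background of 11.6 and 8.49, and the Pdk4 region ranked 9382 and 13284, with 13.9 and 6.47. Neither MPP library had a peak at either gene start. Cavin2 had a further strong LT-HSC region inside the gene, 11.4 kb from the start (ranks 5441 and 4689).

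The MPP windows belong to Ccl3, a macrophage chemokine, at chr11:83649379-83649628 on the minus strand, to Ctsg (cathepsin G) at chr14:56102575-56102824 on the minus strand and Mpo (myeloperoxidase) at chr11:87793534-87793783 on the plus strand, both enzymes of the granules of neutrophil precursors, and to Il7r, the interleukin-7 receptor of lymphoid progenitors, at chr15:9529877-9530126 on the minus strand.
Ccl3: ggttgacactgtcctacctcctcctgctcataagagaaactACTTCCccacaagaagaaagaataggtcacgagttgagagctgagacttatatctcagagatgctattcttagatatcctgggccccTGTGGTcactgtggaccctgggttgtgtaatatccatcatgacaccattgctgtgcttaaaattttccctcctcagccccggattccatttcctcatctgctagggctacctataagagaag
Ctsg: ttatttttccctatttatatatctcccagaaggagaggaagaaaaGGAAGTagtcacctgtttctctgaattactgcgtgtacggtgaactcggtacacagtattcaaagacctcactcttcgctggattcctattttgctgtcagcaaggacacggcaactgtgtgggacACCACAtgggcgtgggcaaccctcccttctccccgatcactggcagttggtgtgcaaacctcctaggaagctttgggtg
Mpo: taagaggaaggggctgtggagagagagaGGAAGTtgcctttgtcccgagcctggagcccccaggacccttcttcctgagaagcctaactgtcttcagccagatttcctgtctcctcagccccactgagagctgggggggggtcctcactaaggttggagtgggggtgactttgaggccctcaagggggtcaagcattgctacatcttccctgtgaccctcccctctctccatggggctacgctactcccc
Il7r: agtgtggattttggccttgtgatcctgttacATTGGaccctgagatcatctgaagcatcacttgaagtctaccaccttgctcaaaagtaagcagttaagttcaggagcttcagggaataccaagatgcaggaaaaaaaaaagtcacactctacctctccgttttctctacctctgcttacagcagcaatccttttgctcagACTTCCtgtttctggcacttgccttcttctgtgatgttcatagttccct
Among these the Ccl3 region was the strongest, with ranks of 2654 and 3257 in MPP WT 1 and 2 and fold enrichments of 22.4 and 20.3. The Ctsg region ranked 12267 and 13879, the Mpo region 19891 and 22030, and the Il7r region 18115 and 16352. Neither LT-HSC library had a peak at any of the 4 starts. All 4 windows hold the ETS letters, and those of Ccl3 and Ctsg hold the RUNX letters as well.

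The lists differed most in length, and this sets how each count can be read. LT-HSC WT 2 held 50023 peaks and LT-HSC WT 3 held 22878, against 85471 and 80451 for MPP WT 1 and 2. The LT-HSC mean was 36450.5 ± 19194.4 and the MPP mean 82961 ± 3549.7 (SD, n = 2 each), and the groups did not overlap, but 2 libraries against 2 cannot go below p = 0.333 in an exact two-sided permutation test, which is the value found. The number of reads in each library is unknown, so a shorter list and fewer open sites cannot be told apart. The last of the 22878 strongest peaks had a −log10 q-value of 15.0 in LT-HSC WT 2 and of 1.66 in LT-HSC WT 3, where it ended the list, against 54.7 and 48.3 in the MPP libraries. In LT-HSC WT 2 (15.0361) and MPP WT 1 (54.6509) the first peak outside this limit had the same value at the precision kept. In MPP WT 2 the values were 48.3199 inside and 48.3195 outside.

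**Figure D1:**
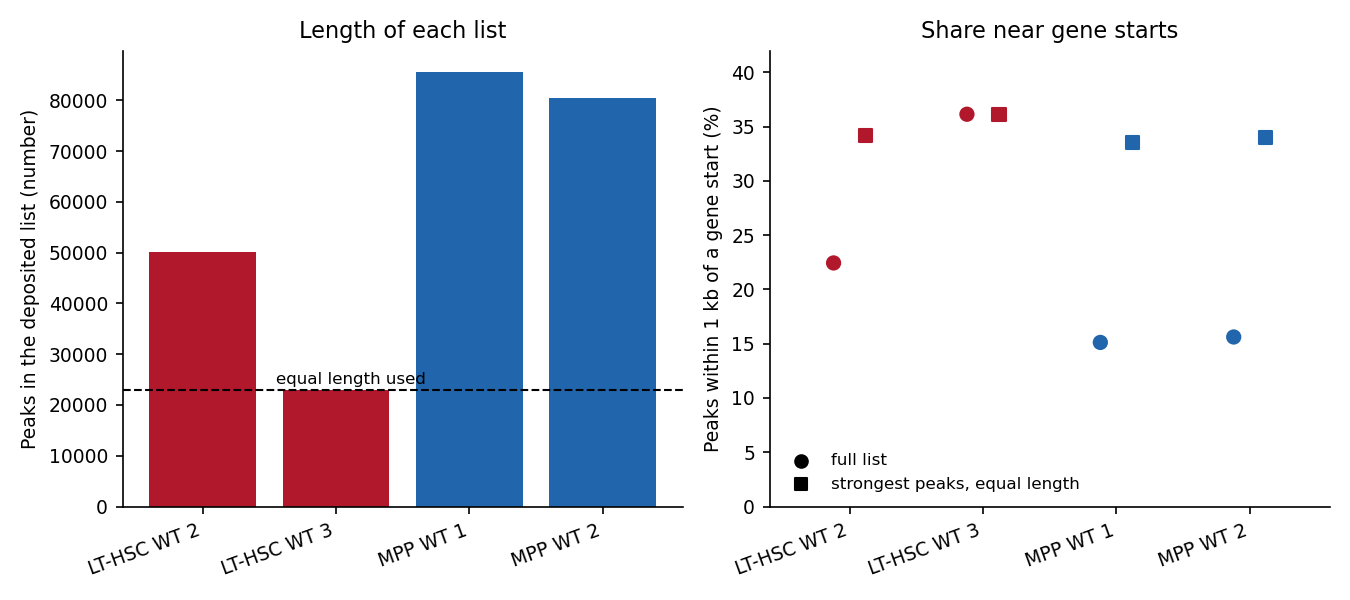
Left, number of peaks in each deposited list, with the equal length (22878) as a dashed line. Right, percent of peaks within 1 kb of a gene start in the full lists (circles) and among the 22878 strongest (squares), with 95% Wilson intervals that are smaller than the symbols. The full lists spread from 15.1% to 36.1% and the equal-length lists from 33.5% to 36.1%.

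At equal length both cell types placed a similar share of their peaks at gene starts. In the full lists 22.4% and 36.1% of LT-HSC peaks and 15.1% and 15.6% of MPP peaks lay within 1 kb of a start. Among the 22878 strongest the shares were 34.2% and 36.1% against 33.5% and 34.0%, a difference of 1.42 percentage points (exact permutation p = 0.333, n = 2 against 2). The plot of peak numbers and start shares by library shows both scales side by side.

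Libraries of 1 cell type shared more of their strongest regions than libraries of different types. The Jaccard index, the regions shared by a pair divided by those held by either, was 0.710 for the LT-HSC pair and 0.856 for the MPP pair, against 0.501 to 0.516 for the 4 mixed pairs. The mean within cell types exceeded the mean between them by 0.274 (exact permutation p = 0.333, the smallest possible). Over the 20661 shared regions, Spearman's rho of the ranks was 0.854 for the LT-HSC pair, 0.981 for the MPP pair and 0.648 to 0.712 for the mixed pairs. Those values are across regions, which are not independent replicates. The LT-HSC pair was thus less alike than the MPP pair on both measures.

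Open regions held by only 1 cell type were far more numerous in MPPs, whose lists were longer. Both MPP libraries and no LT-HSC library held 33923 regions (34.4% of all regions), and both LT-HSC libraries and no MPP library held 830 (0.842%). The first count rose to 52329 without LT-HSC WT 2, and the second to 7425 without LT-HSC WT 3. Strong regions, which ask for a high rank in a list cut to equal length, numbered 570 in LT-HSCs (0.578%) and 3012 in MPPs (3.06%). Without LT-HSC WT 3, at the same cut, they numbered 1029 and 3109, and without LT-HSC WT 2 they numbered 1004 and 6266. Strong LT-HSC regions had to be absent from the longer lists and strong MPP regions from the shorter ones, so these counts are not on the same footing.

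Lists cut to equal length gave more even counts. The 22878 strongest peaks of both LT-HSC libraries and of neither MPP library covered 4207 regions (4.27%), and those of both MPP libraries and of neither LT-HSC library 5251 regions (5.33%). Without LT-HSC WT 3, at the same cut, the counts were 6903 and 6411. Of the 4207 LT-HSC regions, 3363 also had a weaker peak in both MPP libraries. Of the 5251 MPP regions, 2239 had a weaker peak in LT-HSC WT 2. None could have one in LT-HSC WT 3, whose whole list lies within the cut. The 3012 with no peak in either are the strong MPP regions. Counts of weaker peaks are thus not on the same footing in the 2 directions.

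Strong regions of both kinds lay mostly away from gene starts. Within 1 kb of a start lay 13.6% of all regions and 37.9% of those held by all 4 libraries, but 19 of 551 strong LT-HSC regions (3.45%, 95% Wilson interval 2.22% to 5.32%) and 93 of 2913 strong MPP regions (3.19%, 2.61% to 3.90%). Of the regions in the cut lists of only 1 cell type, 10.5% for LT-HSCs and 5.80% for MPPs lay near a start. Chromosome 18 was left out of these shares. Inside a gene lay 54.9% of strong LT-HSC regions, 51.0% of strong MPP regions and 56.3% of all regions. More than 100 kb from any protein-coding gene lay 11.1% of strong LT-HSC and 7.14% of strong MPP regions, against 5.88% of all regions.

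Within the 20661 regions open in all 4 libraries, rank was compared with limma. Each region's place in each library was turned into a normal score, so that a shift of 1 is 1 standard deviation of the ranking and list length does not enter. At an adjusted p under 0.05 over all regions, 2502 ranked higher in LT-HSCs (12.1% of those tested) and 2072 higher in MPPs (10%). An unadjusted p under 0.05 was reached by 7803 (37.8%). The fit uses 1 spread for both cell types although the LT-HSC pair varied more. When the spread came from the LT-HSC pair alone, 1212 and 646 regions were called without MPP WT 1, and 1107 and 503 without MPP WT 2. Without LT-HSC WT 2 the counts were 5587 and 5757, and without LT-HSC WT 3 they were 8827 and 9991, the spread then coming from the closely matched MPP pair. A region had to be in the list of LT-HSC WT 3 to be tested at all, so sites open in MPPs and missing from that list could be seen only by presence.

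**Figure D2:**
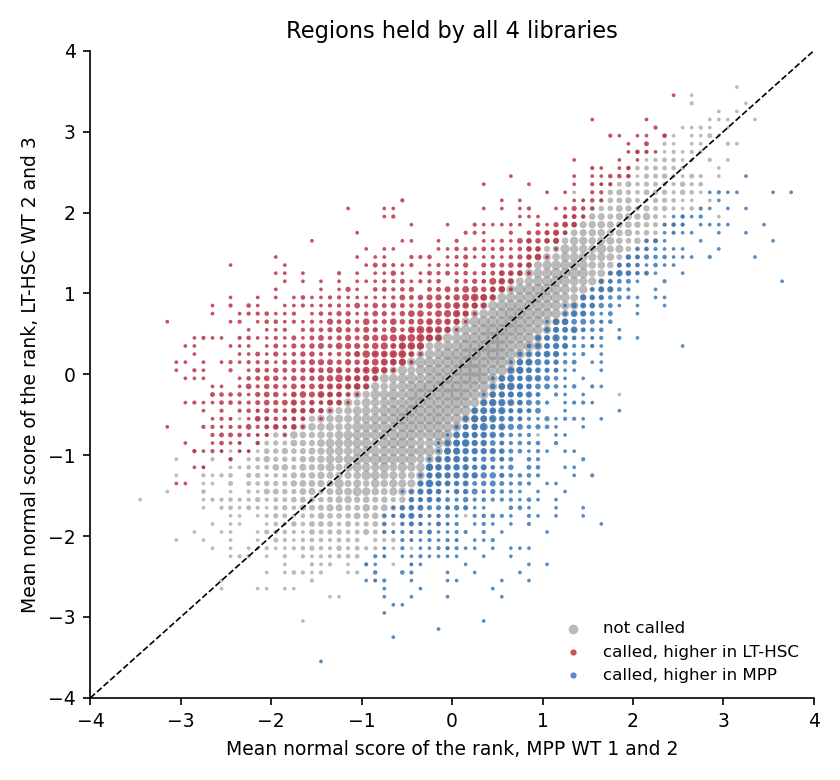
Mean normal score of the rank in LT-HSC WT 2 and 3 (vertical) against that in MPP WT 1 and 2 (horizontal) for the 20661 shared regions, gathered in squares of 0.1 whose symbol grows with the number of regions. The 2502 regions called higher in LT-HSCs (red) lie above the dashed line of equal scores and the 2072 called higher in MPPs (blue) below it.

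Regions ranked higher in LT-HSCs were mostly distal, and those ranked higher in MPPs less so. Near a start lay 17.4% of the first, 35.3% of the second and 41.4% of the regions that were not called. The median shift (LT-HSC minus MPP) was −0.11 over the 7609 shared regions near a start and 0.03 over the 12478 others.

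The gene lists below were read by the share of their regions found only in the strongest LT-HSC peaks or only in those of MPPs. Over all regions these shares were 4.27% and 5.33%. The lists were also read by the calls of the rank fit. Over all shared regions 12.1% were called higher in LT-HSCs and 10% higher in MPPs. No list's calls were tested against these shares. Each region was given to the protein-coding gene that holds its midpoint, or else to the nearest within 100 kb. Over genes, 18.4% of the 16353 with a region had one in the LT-HSC cut lists only and 21.4% one in the MPP cut lists only. A strong LT-HSC region was held by 2.95% of genes and a strong MPP region by 13.8%.

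Genes of the erythroid and megakaryocyte lineages, which stem cells are known to prime, had the largest LT-HSC share of the 19 lists. Of 108 regions at 17 genes, 16 (14.8%, 95% Wilson interval 9.33% to 22.7%) were found only among the strongest LT-HSC peaks and 4 (3.70%) only among the strongest MPP peaks. Of 33 shared regions 11 ranked higher in LT-HSCs and 1 higher in MPPs, with a median shift of 0.41 against −0.03 over all shared regions. The share stayed at 15.0% to 21.2% without any 1 library, when the share over all regions was 4.99% to 7.01%.

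Vwf, the clotting protein von Willebrand factor that marks platelet-biased stem cells, carried 3 regions on the LT-HSC side and 9 of its 20 held by MPP libraries only, with 8 and 5 of the 20 held by LT-HSC WT 2 and 3 and 16 and 13 by MPP WT 1 and 2. A strong region (chr6:125552710-125553080) spanned the lower-coordinate boundary of the gene at 125552948, with its midpoint 0.053 kb outside. It ranked 17866 and 16109 in the LT-HSC libraries and had no MPP peak. A region inside the gene at chr6:125594810-125595213 took places 8731 and 7642.5 of 20661 in LT-HSC WT 2 and 3 but 17238 and 17443.5 in MPP WT 1 and 2, a shift of 1.26 ± 0.21 (SE, limma adjusted p = 0.00911). That call was lost in 3 of 9 alternatives, with an adjusted p of up to 0.0587 under ranking by fold enrichment. The third, also inside the gene, shifted by 0.84 ± 0.16 (adjusted p = 0.0132) and lost its call without MPP WT 1 (0.103). Zfpm1, which encodes FOG-1, the partner of GATA-1, held both directions. Its region inside the gene 27.3 kb from the start took places 8216 and 5935 in LT-HSCs and 18898.5 and 19095.5 in MPPs (shift 1.81 ± 0.23, adjusted p = 0.00458), and a strong LT-HSC region lay 39.7 kb from the start (ranks 12669 and 8984). Its start itself ranked higher in MPPs by −0.51 ± 0.14 (adjusted p = 0.0422), a call not kept in 5 of 10 alternatives and a value that turned to 0.19 under ranking by fold enrichment. Mmrn1, a platelet adhesion protein, had a strong LT-HSC region 8.69 kb from the start with ranks of 12459 and 15418.

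Transcription factors of stem cells followed. Of 455 regions at 25 genes, 39 (8.57%, 6.33% to 11.5%) were found only among the strongest LT-HSC peaks and 17 (3.74%, 2.35% to 5.90%) only among the strongest MPP peaks. Of 102 shared regions 21 ranked higher in LT-HSCs, at 15 genes, and 6 higher in MPPs, at 4 genes, and the median shift was 0.25. Strong regions were few, 3 for LT-HSCs (0.659%, against 0.578% over all regions) and 11 for MPPs (2.42%, against 3.06%). Of the 11, Runx1 held 4, Erg 3 and Fli1 2. Fli1 also gave 3 of the 6 calls higher in MPPs and 1 of the 21 higher in LT-HSCs. Erg gave 1 of the 21 and none of the 6. Fli1 and Erg were singled out after their values were seen. Without any 1 library the LT-HSC share was 9.38% to 13.4%, against 4.99% to 7.01% over all regions.

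Hlf, a PAR-domain factor of self-renewing stem cells, had the largest shift given here for a stem cell factor. Its region at chr11:90382031-90382587, inside the gene 8.61 kb from a start, took places 11656.5 and 6211 of 20661 in LT-HSC WT 2 and 3 and 20561 and 20656 in MPP WT 1 and 2. The MPP places were near the end of the list, and the groups did not overlap. The shift was 3.21 ± 0.44 (adjusted p = 0.00534) and was called in all 8 alternatives that gave a value.

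Mecom, which encodes the stem cell regulator EVI1, had 3 regions called higher in LT-HSCs. The steadiest, at chr3:30476996-30477373 inside the gene, took places 8070.5 and 8734 in LT-HSCs and 18419 and 18489 in MPPs (shift 1.48 ± 0.22, adjusted p = 0.00657). The other 2 shifted by 1.62 and 0.98, and each lost its call in 3 alternatives (adjusted p up to 0.256 and 0.118). The locus also held a strong MPP region, at chr3:30091907-30092333 (ranks 19685 and 20853), so it was not open in 1 direction only. Mllt3, a self-renewal factor of the super elongation complex, carried 1 strong LT-HSC region (ranks 3994 and 5768). Meis1 had 1 of 8 shared regions called (shift 0.86 ± 0.22, adjusted p = 0.0331), which was lost in 3 of 10 alternatives (up to 0.167, under ranking by fold enrichment).

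Gata2 and Runx1, needed from the first blood stem cells on, were open in both cell types at different elements. At Gata2 a region inside the gene (chr6:88202994-88203622) took places 4873 and 3643 in LT-HSCs and 11625 and 10570 in MPPs (shift 0.92 ± 0.17, adjusted p = 0.0118). A region outside the gene, 27.7 kb from the start (chr6:88166015-88166465), took 14401 and 18625.5 in LT-HSCs and 7713.5 and 7556 in MPPs (shift −1.24 ± 0.29, adjusted p = 0.0252). The first call was lost in 3 of 10 alternatives, with a shift as small as 0.36 and an adjusted p up to 0.252, and the second in 2 of 10 (up to 0.143). At Runx1, 2 of 12 shared regions ranked higher in LT-HSCs. The larger shift, 1.21 ± 0.16 (adjusted p = 0.00527), belonged to chr16:92821975-92822672, 3.75 kb from a start, with places 2673 and 3616 in LT-HSCs and 12455 and 11160 in MPPs. The other call was lost in 3 of 10 alternatives (up to 0.175). Beside these Runx1 had 4 strong MPP regions, the best of them with ranks 4030 and 4908.

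**Figure D3:**
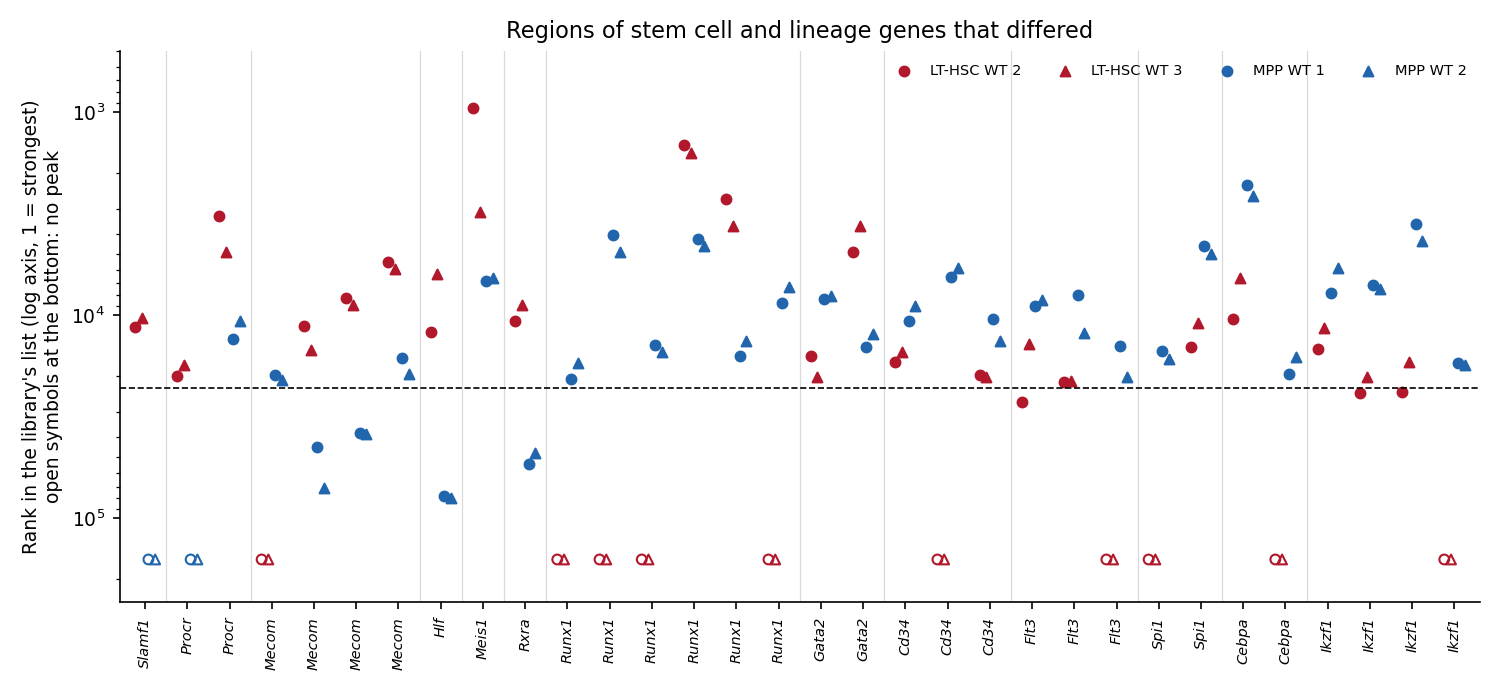
Rank of each region in each library's list (log axis, strongest at the top) for the strong or called regions of 13 named genes, with LT-HSC libraries in red and MPP libraries in blue. Open symbols at the bottom stand for no peak, and the dashed line is rank 22878. Ranks beyond it exist only in the longer lists. Slamf1, Procr, Hlf, Meis1 and Rxra have red symbols above blue, Cd34, Flt3, Spi1, Cebpa and Ikzf1 blue above red, and Mecom, Runx1 and Gata2 hold both.

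Surface molecules known to tell these cell types apart were split between them. The genes below are examples, and the counts over the whole list follow them. Slamf1 (CD150), present on LT-HSCs, had a strong LT-HSC region inside the gene at chr1:171773144-171773604, with ranks of 11435 and 10343 and no MPP peak. Procr, the endothelial protein C receptor of LT-HSCs, had a strong LT-HSC region 8.82 kb from the nearest start (ranks 20005 and 17638). Its neighbour took places 3265 and 4843.5 in LT-HSCs and 10912 and 9516 in MPPs (shift 0.85 ± 0.17, adjusted p = 0.017), a call lost in 4 of 10 alternatives, with a shift as small as 0.17 and an adjusted p up to 0.458.

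Cd34 and Flt3, which mouse LT-HSCs lack on their surface and MPPs gain, ran the other way. The Cd34 region at the start (chr1:194938653-194939080) took places 16598.5 and 18680.5 in LT-HSCs and 9213 and 11176 in MPPs, a shift of −1.10 ± 0.26 (adjusted p = 0.0272). A second Cd34 region, 59.0 kb from the start, shifted by −0.77 ± 0.20 (adjusted p = 0.0340), and a strong MPP region lay 10.7 kb from the start, with ranks of 6486 and 5888. Flt3, the receptor of early lymphoid and myeloid progenitors, had 2 of 4 shared regions called, with shifts of −1.16 ± 0.33 and −1.43 ± 0.29 (adjusted p = 0.0481 and 0.0159), and a strong MPP region 11.3 kb from a start (ranks 14251 and 20158). All 4 of these calls at Cd34 and Flt3 were lost without MPP WT 1 and without MPP WT 2 (adjusted p between 0.0691 and 0.455), and some under other alternatives as well, with no change of direction. Kit, the stem cell factor receptor on both cell types, had none of 5 shared regions called and 1 strong MPP region. Cd48, absent from LT-HSCs, had 5 of 8 regions held only by MPP libraries, none of them strong, where 34.4% of all regions were so held, and Ly6a (Sca-1) had a single region, seen in LT-HSC WT 2 and MPP WT 1.

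Over the 19 surface marker genes, 8% of 175 regions were found only in the strongest LT-HSC peaks and 6.86% only in the strongest MPP peaks. Of 37 shared regions 8 ranked higher in LT-HSCs and 5 higher in MPPs. Cd9, also on this list, gave 1 of the 5 and held 1 strong MPP region and no strong LT-HSC region. Its call was lost in 2 of 9 alternatives. The list as a whole was thus nearly even and does not check the labels.

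Myeloid factors and granule proteins leaned to MPPs. Of 185 regions at 20 genes, 19 (10.3%, 6.67% to 15.5%) were found only in the strongest MPP peaks and 8 (4.32%) only in the strongest LT-HSC peaks, and 14 (7.57%) were strong MPP regions against 3.06% over all regions. Without any 1 library the MPP share was 11.7% to 12.2%, against 6.51% to 7.04% over all regions. Of 39 shared regions 7 ranked higher in MPPs and 4 higher in LT-HSCs, with a median shift of −0.05.

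The Cebpa start (chr7:35118838-35119604) took places 10151 and 6508 in LT-HSCs and 2291 and 2580.5 in MPPs, a shift of −0.93 ± 0.19 (adjusted p = 0.0156). That call was lost in 3 of 10 alternatives, with a shift as small as −0.12 and an adjusted p up to 0.717. A strong MPP region lay 5.67 kb from the Cebpa start. Spi1 shifted by −0.97 ± 0.18 at chr2:91096457-91097346 (adjusted p = 0.0138), with places 13429 and 10681 in LT-HSCs and 4469 and 4884 in MPPs, and lost the call in 4 of 10 alternatives (up to 0.113). Irf8, which directs monocyte and dendritic cell fates, held regions of both kinds: 1 strong LT-HSC region, 1 strong MPP region, and 1 shared region at places 6466.5 and 9080 in LT-HSCs against 18796.5 and 19180 in MPPs (shift 1.72 ± 0.24, adjusted p = 0.0057).

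Markers of mature myeloid cells moved with this list. Of 78 regions at 13 genes, 13 (16.7%, 10% to 26.5%) were found only in the strongest MPP peaks and 1 (1.28%) only in the strongest LT-HSC peaks, and 47 (60.3%) were held by MPP libraries only, against 34.4% of all regions. Of 10 shared regions 5 ranked higher in MPPs and none higher in LT-HSCs, with a median shift of −0.53. The MPP libraries held 74 and 69 of the 78 regions (94.9% and 88.5%, against 85.6% and 80.9% of all regions) and the LT-HSC libraries 24 and 10 (30.8% and 12.8%, against 49.7% and 22.6%). Itgam (CD11b) alone had 2 strong MPP regions, the better with ranks 8475 and 8206, and Mrc1, the macrophage mannose receptor, 2 more. The neutrophil gene Ly6g had no region in any library. The part of mature cells in the MPP regions was not tested.

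Interferon and inflammation genes leaned the same way, with 25 of 263 regions (9.51%, 6.52% to 13.7%) in the strongest MPP peaks only and 10 (3.80%) in those of LT-HSCs only. Of 76 shared regions 15, at 12 genes, ranked higher in MPPs and 7, at 4 genes, higher in LT-HSCs (median shift −0.20). Without any 1 library the MPP share was 10.6% to 11.2%, against 6.51% to 7.04% over all regions. Tnfaip3, the NF-kappa-B brake A20, singled out after its values were seen, held 3 strong MPP regions. Irf2, which restrains interferon signalling in stem cells, held regions of both kinds, with 3 of 8 shared regions called higher in LT-HSCs and 1 higher in MPPs, and with 1 strong LT-HSC and 3 strong MPP regions. Irf2 gave 5 of the 25 regions in the strongest MPP peaks only, and it is counted in the quiescence list as well. The LT-HSC call with the smallest adjusted p, chr8:46848911-46849285, took places 5451 and 3817 in LT-HSCs and 15660 and 17116 in MPPs (shift 1.59 ± 0.20, adjusted p = 0.00446).

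Lymphoid priming genes had more regions on the MPP side by presence and by calls, but a slightly positive median shift. Of 355 regions at 23 genes, 9 (2.54%) were found only in the strongest LT-HSC peaks and 22 (6.20%) only in those of MPPs. The LT-HSC share was 6.34% without LT-HSC WT 2 and 5.92% without LT-HSC WT 3, close to the 6.95% and 7.01% over all regions. Of 54 shared regions 7, at 4 genes, ranked higher in LT-HSCs and 10, at 7 genes, higher in MPPs, with a median shift of 0.08. Ikzf1 accounted for 3 of the 10. The clearest, inside the gene at chr11:11763138-11763786, took places 18152 and 16115 in LT-HSCs and 3509.5 and 4269.5 in MPPs (shift −1.86 ± 0.21, adjusted p = 0.00348), and a second shifted by −1.69 ± 0.21 (0.00443). Both were called in all 9 alternatives that gave a value. The third, at the Ikzf1 start, shifted by −0.75 ± 0.20 and lost its call in 5 of 10 alternatives, with a shift as small as −0.12 and an adjusted p up to 0.720. Bach2, listed with AP-1 genes and a repressor in lymphoid progenitors, had 2 regions higher in LT-HSCs and 1 higher in MPPs, of which 1 of the LT-HSC calls was kept in all 9 alternatives. T and B cell markers gave little: 2 of 55 and 0 of 33 regions were in the strongest LT-HSC peaks only, and 4 and 3 in those of MPPs only. A count of 0 in 33 regions has a 95% Wilson interval up to 10.4%.

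Quiescence genes were found on both sides. Of 236 regions 14 (5.93%) were found only in the strongest LT-HSC peaks and 20 (8.47%) only in those of MPPs, and 10 and 6 of 57 shared regions were called in each direction (median shift 0.02). Foxo3, a factor of stem cell maintenance, held 3 strong MPP regions and no strong LT-HSC region, whereas Pdk4 held the strong LT-HSC start shown above. Btg2, an antiproliferative gene, held 1 strong region of each kind close to each other, at chr1:134065161-134065694 (MPP, ranks 16992 and 17124) and chr1:134073004-134073583 (LT-HSC, ranks 5476 and 4345). Its start ranked higher in MPPs (−0.57 ± 0.14, adjusted p = 0.0307), not kept in 5 of 10 alternatives and with the sign turned under ranking by fold enrichment (0.19).

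Cell cycle genes had 10 of 197 regions (5.08%) in the cut lists of each cell type only. Without LT-HSC WT 2 there were 20 of 193 (10.4%) on the LT-HSC side and 11 (5.70%) on the MPP side, against 6.95% and 6.80% over all regions. Of 57 shared regions 7 ranked higher in MPPs, each at a different gene, and 1 higher in LT-HSCs. Over all shared regions 10% and 12.1% were so called, and the list was not tested against these shares. Cyclin D1 (Ccnd1) held 1 call in each direction. Its MPP region, 31.3 kb outside the gene, took places 17483 and 13419 in LT-HSCs and 5009 and 5319 in MPPs (shift −1.38 ± 0.25, adjusted p = 0.0111), and its LT-HSC region took 5650 and 10320 against 18713 and 18740 (1.62 ± 0.27, 0.00941). Cdk6, the kinase that sets how fast stem cells leave quiescence, had 42 regions, of which 20 were held by MPP libraries only and none by LT-HSC libraries only (34.4% and 0.842% over all regions), with none called among 2 shared.

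Myc, a transcription factor of cell growth, had 14 regions. MPP WT 1 and 2 held 12 each and LT-HSC WT 2 and 3 held 6 and 3, where the 4 libraries held 85.6%, 80.9%, 49.7% and 22.6% of all regions. Both MPP libraries alone held 8 (34.4% over all regions), of which 2 were strong, with ranks of 11277 and 11429 at chr15:61999562-62000032 and 21401 and 16813 at chr15:62056347-62056845. None of its 3 shared regions was called. Over the list of Myc and its classical targets the shares were near the background, at 3.85% and 5.77% of 156 regions, with 4 and 3 of 42 shared regions called. Max, the partner of Myc, ranked higher in LT-HSCs at 1 of 5 shared regions, with places 238 and 2143 against 9001 and 8877 (shift 1.60 ± 0.30, adjusted p = 0.0133).

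Rxra, the retinoid X receptor deleted in the other libraries of the series, had 1 of 4 shared regions called. It lies inside the gene at chr2:27758405-27758832, took places 10313.5 and 8729.5 in LT-HSCs and 19813 and 19415 in MPPs, and shifted by 1.74 ± 0.26 (adjusted p = 0.00641), a call kept in all 9 alternatives that gave a value. Rxrb had 3 regions and no call. The retinoid list had 12 of 216 regions (5.56%) in the strongest LT-HSC peaks only and 7 (3.24%) in those of MPPs only, and 6 against 1 of 43 shared regions called. Rarb held 1 strong region of each kind, and Aldh1a1, which makes retinoic acid, a strong LT-HSC region 12.5 kb from the start (ranks 6481 and 17223). Slc2a1, the glucose transporter GLUT1, had 2 regions called higher in LT-HSCs, the larger with places 2797 and 4454 against 19885.5 and 20268 (shift 2.87 ± 0.25, adjusted p = 0.00288). The glycolysis list as a whole was near the background (3.51% and 2.92% of 171 regions).

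Growth and niche signalling genes were divided, with 25 and 28 of 359 regions in the cut lists of LT-HSCs and MPPs only and 16 against 6 of 77 shared regions called. Smad3, which carries TGF-beta signals, held 4 strong MPP regions and 1 strong LT-HSC region, and 2 of its 10 shared regions were called in each direction. Of these 4 calls only that at chr9:63716124-63716682, in the MPP direction, was kept in all 10 alternatives. The LT-HSC call 0.165 kb from the start was lost in 4 of 10 (adjusted p up to 0.295), the other LT-HSC call in 1 of 10 and the other MPP call in 2 of 8. The insulin-like growth factor receptor Igf1r had 3 of 10 called higher in LT-HSCs, with shifts of 0.64 to 2.25, beside 2 strong MPP regions. The largest was kept in all 9 alternatives, the smallest was lost in 5 of 10 (adjusted p up to 0.374) and the other in 1 of 9 (0.0738). AP-1 genes stood at 5.40% and 6.47% of 278 regions, and without LT-HSC WT 2 at 34 of 269 (12.6%) and 8.55%, against 6.95% and 6.80% over all regions. Jun itself had 1 region at places 10588 and 4481 against 19251 and 20035 (shift 2.06 ± 0.34, adjusted p = 0.00866).

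**Figure D4:**
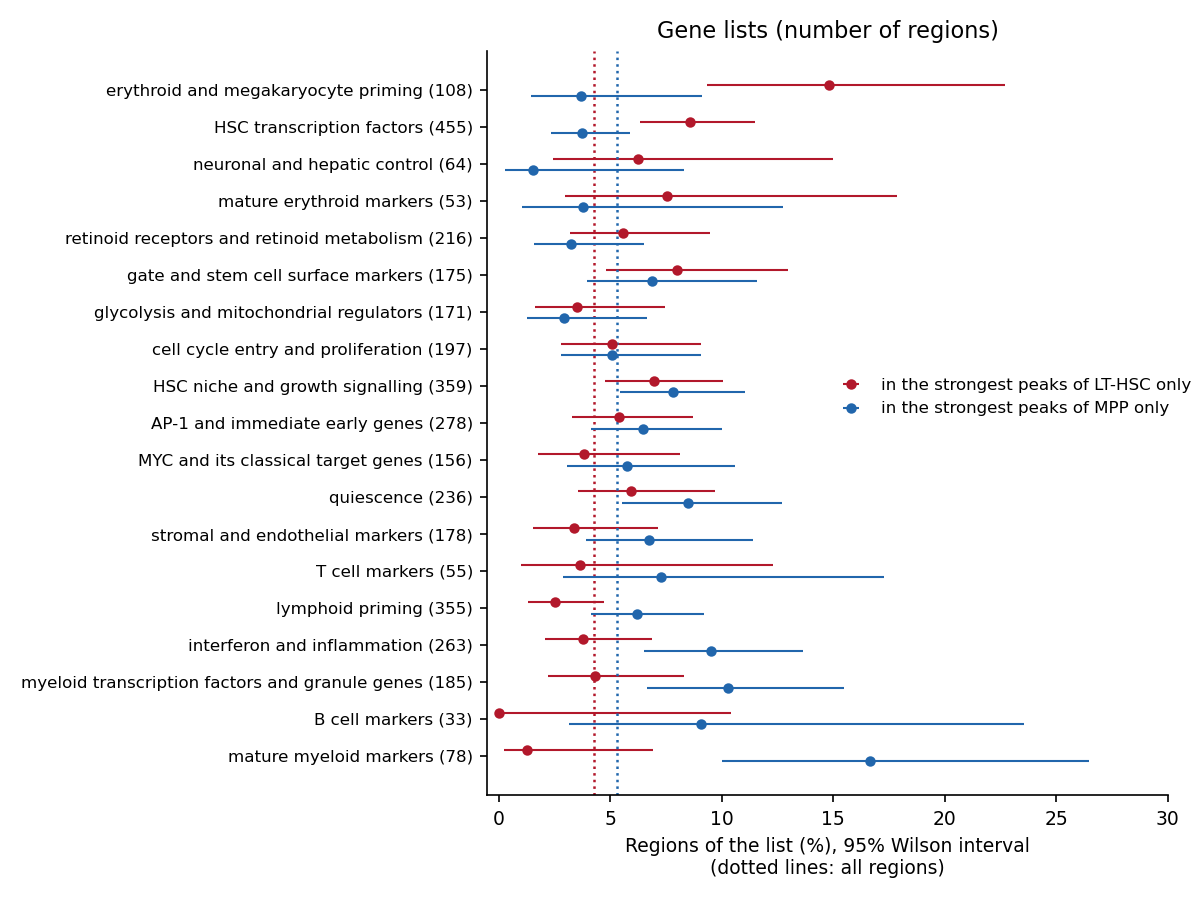
Percent of each list's regions found only among the strongest peaks of both LT-HSC libraries (red) or only among those of both MPP libraries (blue), with 95% Wilson intervals and the number of regions in brackets. Dotted lines give 4.27% and 5.33% over all regions. Erythroid and megakaryocyte priming (14.8%) and HSC transcription factors (8.57%) have red intervals above the red line, as do surface markers (8%) and niche signalling (6.96%). For MPPs, mature myeloid markers (16.7%), myeloid genes (10.3%), interferon genes (9.51%), quiescence genes (8.47%) and niche signalling (7.80%) have blue intervals above the blue line.

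Lists of other tissues give the scale for small lists. Of 64 regions at 11 neuronal and hepatic genes, 4 (6.25%, 2.46% to 15.0%) were in the strongest LT-HSC peaks only and 1 (1.56%) in those of MPPs only, and 4 of 8 shared regions ranked higher in LT-HSCs and 1 in MPPs, with a median shift of 1.11. Stromal and endothelial markers gave 6 and 12 of 178 regions, with 4 against 1 of 18 shared called, 3 of the 4 at Flt1, also named after its values were seen. Mature erythroid markers gave 4 and 2 of 53. The plot of list shares sets these beside the blood lists.

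Taken without regard to lists, the strongest sites held by only 1 cell type were at genes of varied kinds. The best strong LT-HSC regions were one on chromosome 18 with no gene within 100 kb (ranks 2020 and 3666), and regions at the actin-linked coactivator Mrtfb (3295 and 4414), at Mcm9 (3387 and 4638) and at Soga1 (4019 and 4154). The best strong MPP regions were at Anks3 (1980 and 2822), Siglech, a plasmacytoid dendritic cell receptor (2316 and 3058), Gm46617 (2395 and 3011) and the lipid phosphatase Plpp3 (2548 and 3201). The genes with most strong LT-HSC regions were Thsd4 and Creb5, with 3 each, and those with most strong MPP regions Asap1, Fndc3b and Stxbp6, with 5 each. At least 2 strong regions were found at 22 genes for LT-HSCs and 436 for MPPs. Strong regions of both kinds were found at 124 genes, which is 25.7% of the genes with a strong LT-HSC region and 5.51% of those with a strong MPP region. Over all genes with a region, 13.8% had a strong MPP region and 2.95% a strong LT-HSC region.

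The smallest adjusted p-values of the rank fit belonged to regions at opposite ends of the lists. Gm52806 took places 1961 and 1578.5 in LT-HSCs and 20450 and 20555 in MPPs (shift 3.81 ± 0.23, adjusted p = 0.00288), with Rpa1 and Gypc, a red cell membrane glycoprotein, close behind at shifts of 3.43 and 3.34. In the MPP direction Gng12 took places 20366.5 and 20630 in LT-HSCs and 4212 and 3719 in MPPs (shift −3.45 ± 0.33), followed by 3110040M04Rik, the lipoprotein receptor Scarb1 and Prr5 at −3.44, −3.24 and −3.22. These calls were kept in every alternative that gave a value.

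Several microRNA genes lay within 5 kb of regions that differed, and these were chosen after their values were seen. Of 919 RefSeq hairpins, 540 had a region within 5 kb. Of these, 50 had one called or strong for LT-HSCs or in their cut lists only, and 59 one for MPPs. Hairpins were counted singly, so 1 region can count for several of them, as at the miR-17 cluster and at miR-142. The matching share over all regions was not computed, so neither count can be set against a background. The cluster of miR-17 to miR-92a on chromosome 14, known to promote proliferation, had a region 1.25 kb from its first hairpin (chr14:115041814-115042419). It ranked 23161 and 21716 in LT-HSC WT 2 and 3 and 13552 and 9426 in MPP WT 1 and 2, a shift of −1.50 (adjusted p = 0.0174). The mature RNAs below are shown with their seeds (bases 2 to 8) in capitals, since the hairpins of this cluster hold several seed families. miR-17 and miR-20a share a seed, as do miR-19a and miR-19b.
miR-17-5p: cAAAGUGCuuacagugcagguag
miR-20a-5p: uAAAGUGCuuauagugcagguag
miR-18a-5p: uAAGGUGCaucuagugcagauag
miR-19a-3p: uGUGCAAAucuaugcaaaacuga
miR-19b-3p: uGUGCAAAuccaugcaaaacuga
miR-92a-3p: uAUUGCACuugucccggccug
miR-130a-3p: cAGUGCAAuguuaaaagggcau
miR-142a-3p: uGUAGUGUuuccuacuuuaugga
miR-130a, expressed in stem and megakaryocytic cells, had a region 2.32 kb away. It took places 12286 and 15747 in LT-HSCs and 19479 and 19627 in MPPs (shift 1.13, adjusted p = 0.0400). miR-142, found throughout blood cells, had a strong MPP region 2.57 kb away (ranks 17173 and 16601). miR-22 had a strong LT-HSC region 4.67 kb away (ranks 13490 and 9855) and a very strong shared region 1.97 kb away that ranked 275 and 274 in LT-HSCs and 76 and 24 in MPPs (shift −0.65, adjusted p = 0.0387).

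Sequence around gene starts differed between the called groups. In windows from 250 bases before to 50 after a start, the CCAAT letters, on either strand, were in 59.0% of the 439 windows with a region ranked higher in LT-HSCs (95% Wilson interval 54.3% to 63.5%), in 30.3% of the 803 with a region ranked higher in MPPs (27.2% to 33.5%) and in 41.2% of the 7495 shared windows not called. They were in 38.1% of all 20063 windows. GGGCGG, the GC box of Sp1, was in 60.8%, 79.2% and 69.9% of the 3 groups, and the median GC content was 58.7%, 67.7% and 62.0%. Within windows of 60% to 70% GC the CCAAT shares were 64.8% of 176 and 27.0% of 311, and within 50% to 60% GC they were 55.7% of 201 and 47.3% of 146, where the intervals overlap. At 70% GC or more they were 43.3% of 30 and 25.7% of 315, again with overlapping intervals. Without any 1 library the CCAAT share was 47.5% to 62.0% in the LT-HSC group and 27.5% to 32.3% in the MPP group. Of the 359 windows found only in the strongest LT-HSC peaks, 37.3% held the CCAAT letters (32.5% to 42.4%), near the share of all windows. Of the 245 found only in the strongest MPP peaks, 24.1% held them (19.2% to 29.8%). Motifs were searched only in start windows, and most regions that differ are distal.

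**Figure D5:**
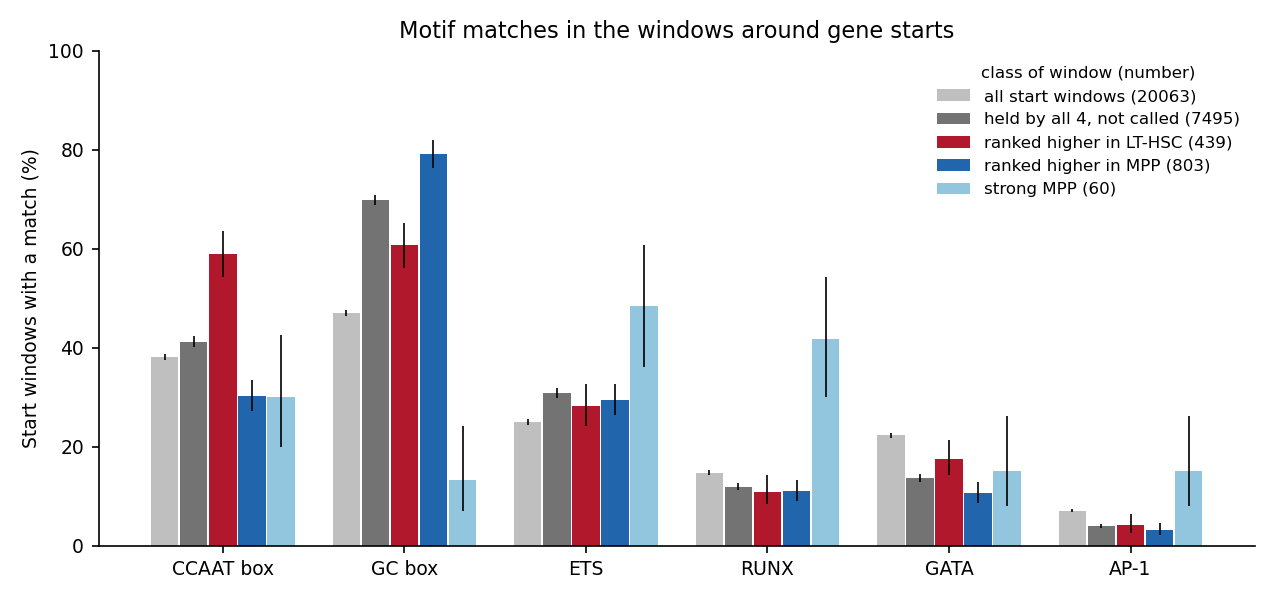
Percent of start windows with a match to each motif, by the class of region that overlaps the window, with 95% Wilson intervals and the number of windows in brackets. CCAAT is highest in the windows ranked higher in LT-HSCs (59.0%), the GC box in those ranked higher in MPPs (79.2%), and the ETS and RUNX letters in the 60 windows with a strong MPP region (48.3% and 41.7%).

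The windows at strong MPP regions looked different again. Of these 60 windows 48.3% held the ETS letters (36.2% to 60.7%) and 41.7% the RUNX letters (30.1% to 54.3%), against 25.0% and 14.8% of all windows, and 13.3% held the GC box, against 47.0%. Their median GC content was 50.2%. The Ccl3 and Ctsg windows printed above are examples. The 16 windows at strong LT-HSC regions held the GATA letters in 43.8% (23.1% to 66.8%), against 22.3% of all windows. They held the AP-1 letters in 31.25% (14.2% to 55.6%), against 7.06%. Windows with no region held the GATA letters in 33.8% and the AP-1 letters in 10.6%. The small number of windows at strong LT-HSC regions leaves both intervals wide.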

How the data were processed

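ATAC-seq peaks of 4 libraries, LT-HSC WT 2 and 3 and MPP WT 1 and 2, were taken from the peak lists the authors deposited, 1 list per library. Each peak has a score, a fold enrichment (ratio over background) and a −log10 p-value and −log10 q-value, all deposited by the authors. Per the submitters' processing notes, cutadapt 1.7, SAMtools 0.1.18 and MACS2 2.1.1 were among the tools and mm10 the build. The peak lists carry no read totals, so depth is unknown, and the peak number stands for it only in part.

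Peaks overlapping by at least 1 bp were merged. Peaks were ranked by −log10 q-value, with ties by fold enrichment, and lists were cut to 22878. Ranks within the 20661 regions held by all 4 libraries were turned into normal scores and fitted with limma 3.58.1 (R 4.3.3) with trend and robust settings, with Benjamini-Hochberg adjustment over all 20661. Every adjusted p comes from that fit or its alternatives. The fit was also run on simulated scores with known shifts, and the outcome is not reported here. Other values came from Python 3.11.15 with pandas 2.3.3, and exact permutation tests from SciPy 1.17.1. Gene positions, start windows (16457 of 20665 protein-coding genes, none on chromosome 18) and microRNAs came from RefSeq tables of GRCm38.p6. Peaks lie on chromosomes 1 to 19. Wilson intervals treat regions as independent and cover counting error only.

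The cell types, the 19 gene lists (368 of 373 entries matched) and the genes always named were chosen with earlier results of these data known. Named genes were fixed genes of each list together with those holding the strongest regions, the smallest adjusted p-values or the most strong regions, and some of them are not reported here. Alternatives were another ranking, cut, overlap, q-value minimum, gene distance, start window, normalisation and variance model, and each library left out. Gene list and motif shares without each library, and counts without LT-HSC WT 3 at the unchanged cut, were chosen after seeing the data.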

Additional observations from a re-analysis of the deposited data

How the results depend on the processing

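Counts moved both with the LT-HSC library left out and with the length of the cut. Leaving out each library in turn gave 977 to 7425 regions held by LT-HSC libraries only, 34202 to 52329 held by MPP libraries only, 677 to 7425 strong LT-HSC regions, 3582 to 14175 strong MPP regions, 4636 to 14829 regions in the LT-HSC cut lists only and 6266 to 14175 in the MPP cut lists only. The rank fit then called 1107 to 8827 regions higher in LT-HSCs and 503 to 9991 higher in MPPs. Without LT-HSC WT 3 the lists are cut at LT-HSC WT 2's full length, and at the unchanged cut there were 1029 strong LT-HSC and 3109 strong MPP regions, with 6903 in the LT-HSC cut lists only. Lists cut to 10000 peaks held 64 strong LT-HSC and 345 strong MPP regions, and 1774 and 1903 regions in the cut lists of LT-HSCs and MPPs only. Among regions in the strongest peaks of all 4 lists, the fit called 1330 and 1250. With genes assigned within 20 kb, the neuronal and hepatic list gave 2% and 0%.

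Of 90 called regions of named genes, 35 kept the call in every alternative that gave a value. Calls were lost at 43 of 90 without MPP WT 1, at 44 of 89 without MPP WT 2, at 36 under ranking by fold enrichment and at 31 with quantile-normalised fold enrichment. The sign turned at Btg2 (0.19 and 0.12 under those last rankings), Itgam (0.26 and 0.17) and Zfpm1 (0.19 and 0.12), and the cause was not tested. No paired analysis was possible because the cell types share only 1 replicate number.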
